A study of Mus musculus with 10 samples.

Results

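H3K27me3 was compared between ex14D and control mouse ES cells at the promoter of every counted gene, and the change is described here by gene family and function. The members were all 24500 gene rows of the promoter counts, which are all the gene rows of the series, after the rows for reads assigned to no gene were left out. A minimum of reads was passed by 14883 promoters, and these were tested. Control cells were E14 Embryonic Stem Cells, a male mouse ES cell line, with the genotype wild-type. The ex14D cells were the same line after CRISPR-Cas9 had left a small insertion or deletion in exon 14 of Ezh2. By the study's account only the transcript that skips exon 14 then gives working EZH2, and the samples are labelled as an Ezh2 knockout. Both share the strain label 12910la, and no treatment or time is given for either. H3K27me3 ChIP-seq gave 2 libraries per genotype, beside 1 input library per genotype and 2 EZH2 libraries per genotype, 10 libraries in all. Nothing ties the 2 libraries of a genotype to separate cultures or edited clones, so p-values measure only the spread between these libraries, which may be technical. No spike-in was described, so the counts show how H3K27me3 reads were shared out among promoters and not how much of the mark a cell held. Higher and lower below are relative to the other promoters. By Western blot, and by ChIP-PCR at Hoxa10, Hoxd9, Bmp6, Pax7, Elavl3, Shc3 and Runx2, the study reported less H3K27me3 in ex14D cells. A mark lost from some cells cannot be told apart from a weaker mark in every cell. Reads at the Ezh2 promoter do not check the edit.

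Polycomb repressive complex 2 (PRC2) adds methyl groups to lysine 27 of histone H3, with EZH2 or EZH1 as its catalytic subunit. The trimethylated form, H3K27me3, covers CpG-rich promoters of genes that are kept silent, and is read by complexes of the PRC1 type. In ES cells it lies over the Hox clusters and the promoters of many other regulators of development, which stay silent until a lineage is chosen, while promoters of genes in active use carry little of it.

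The promoters with the most prominent changes differed in sequence as well as in direction, and the 200 bases that precede the transcription start are shown for 7 of them, from the RefSeq annotation of GRCm38.p6, 5′ to 3′ on the strand of the gene. Capitals mark each CpG, the dinucleotide that unmethylated PRC2 targets are rich in. Hoxb3 and Hoxa11 stand for the Hox clusters, Pcdh7 and Pcdh10 for protocadherins with more reads in ex14D, Gja1 and Gjc1 for a pair of connexins that moved in opposite directions, and Rfx2 for promoters with fewer.
Hoxb3 (chr11:96322926-96323125, forward strand): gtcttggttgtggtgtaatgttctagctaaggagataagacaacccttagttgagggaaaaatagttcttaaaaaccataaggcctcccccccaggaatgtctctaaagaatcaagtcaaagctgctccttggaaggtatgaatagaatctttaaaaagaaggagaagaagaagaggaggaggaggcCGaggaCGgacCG
Hoxa11 (chr6:52245811-52246010, reverse strand): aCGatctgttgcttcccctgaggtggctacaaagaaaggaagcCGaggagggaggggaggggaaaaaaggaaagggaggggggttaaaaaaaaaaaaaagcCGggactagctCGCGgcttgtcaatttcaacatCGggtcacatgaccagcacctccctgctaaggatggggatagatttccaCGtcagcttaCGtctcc
Pcdh7 (chr5:57717881-57718080, forward strand): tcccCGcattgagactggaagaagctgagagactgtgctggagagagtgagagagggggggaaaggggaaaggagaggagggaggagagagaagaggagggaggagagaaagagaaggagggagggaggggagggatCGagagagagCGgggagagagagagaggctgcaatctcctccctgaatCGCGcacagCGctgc
Pcdh10 (chr3:45378198-45378397, forward strand): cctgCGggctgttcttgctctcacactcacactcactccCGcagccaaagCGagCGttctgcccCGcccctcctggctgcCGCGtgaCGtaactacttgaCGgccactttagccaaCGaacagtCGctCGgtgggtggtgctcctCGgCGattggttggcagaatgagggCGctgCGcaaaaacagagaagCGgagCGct
Gja1 (chr10:56377100-56377299, forward strand): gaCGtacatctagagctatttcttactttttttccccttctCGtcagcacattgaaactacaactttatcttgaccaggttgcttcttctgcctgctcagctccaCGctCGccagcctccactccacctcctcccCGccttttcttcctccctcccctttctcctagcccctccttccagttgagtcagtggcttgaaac
Gjc1 (chr11:102819687-102819886, reverse strand): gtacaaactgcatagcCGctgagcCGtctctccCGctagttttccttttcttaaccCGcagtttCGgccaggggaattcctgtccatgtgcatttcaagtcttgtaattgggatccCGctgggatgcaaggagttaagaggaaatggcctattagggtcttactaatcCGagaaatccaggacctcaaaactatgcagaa
Rfx2 (chr17:56831009-56831208, reverse strand): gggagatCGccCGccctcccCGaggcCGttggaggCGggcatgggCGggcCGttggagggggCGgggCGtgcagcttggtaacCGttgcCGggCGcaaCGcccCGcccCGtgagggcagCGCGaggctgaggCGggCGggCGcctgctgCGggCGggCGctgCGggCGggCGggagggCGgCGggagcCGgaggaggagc
The windows held 3 CpG in Hoxb3, 8 in Hoxa11, 6 in Pcdh7, 18 in Pcdh10, 5 in Gja1, 7 in Gjc1 and 29 in Rfx2. Over all promoters that could be placed, the median was 7 CpG, and 43.5% of windows held 10 or more. Among these 7, Hoxb3 held the fewest, and Rfx2, with fewer reads in ex14D, held the most. The number did not follow the direction, since Pcdh10, with more reads in ex14D, held 18 and Gjc1, with fewer, held 7.

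The control H3K27me3 libraries had 594289 and 937207 promoter reads. The ex14D ones had 1450937 and 1248018, and promoters took 5.65% to 7.58% of each library. The spread between libraries of a genotype exceeded counting error (chi-square over its degrees of freedom 2.31 for control, 1.95 for ex14D). Values are given as reads per 1000000 promoter reads after TMM scaling (CPM), a method that sets the libraries level over the bulk of promoters. Fold changes are ex14D over control on the log2 scale, with the standard error, and adjusted p-values are those of edgeR's quasi-likelihood test. The level of a promoter is the mean over the 4 H3K27me3 libraries of the log2 ratio of its CPM to the CPM of the input of its genotype, and promoters with at least 2-fold are called marked.

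Promoters that carried the most H3K27me3 held a larger share of the reads in ex14D, and promoters near or below the input held a smaller share. The edgeR quasi-likelihood test called 871 promoters higher in ex14D, which is 5.85% of those tested, and 475 lower, which is 3.19% (Benjamini-Hochberg adjusted p under 0.05). Of 593 tested promoters with a level of 8-fold or more, 467 were higher and the others were not called. Of the 10998 tested promoters below the input, 50 were higher and 317 were lower. The promoters called higher had a median level of 3.09 on the log2 scale and a median of 276 and 266 CPM in the control libraries against 504 and 525 CPM in ex14D. Those called lower had a median level of -0.58, with 51.8 and 48.9 CPM in control against 19.8 and 17.9 CPM in ex14D. In all 4 pairs of 1 ex14D and 1 control library, 871 higher promoters and 472 of the 475 lower ones kept their direction. So did 5919 of the 13537 promoters not called. With 2 libraries per genotype a call nearly requires this, so it adds no support.

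**Figure D1:**
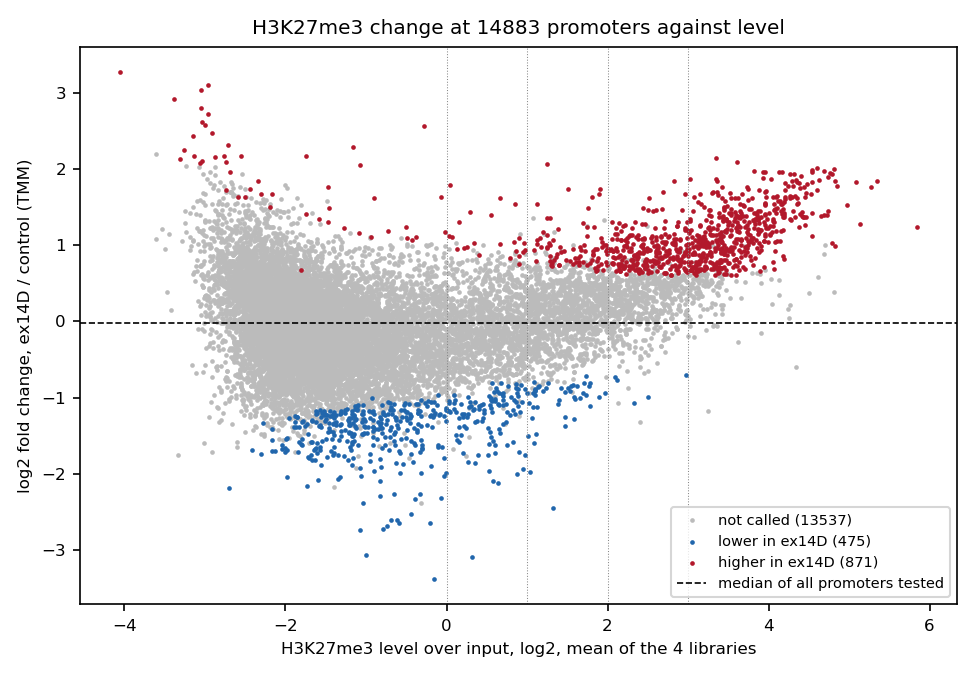
Each point is 1 of 14883 promoters, with its H3K27me3 level over input (log2, mean of the 4 libraries) on the horizontal axis and the log2 fold change of ex14D over control on the vertical axis. The 871 higher promoters in red gather at levels above 4-fold (2 on the log2 scale), the 475 lower ones in blue at levels below 4-fold, and dotted lines mark the limits of the level classes.

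The same reads can be given as shares. The level that sets the classes comes from all 4 libraries, ex14D included, so the shares are not separate support. The 595 promoters at 8-fold or more held 25.9% and 22.1% of promoter reads in control and 37.1% and 41.1% in ex14D, with 2.41% in either input. The 2633 marked promoters held 62.3% and 60.3% in control and 72.9% and 74.0% in ex14D. The promoters that were not marked fell from 37.7% and 39.7% to 27.1% and 26.0%. A set chosen from other libraries moved less. The 4090 promoters with an EZH2 domain in both control libraries held 71.2% and 70.8% in control and 79.0% and 78.9% in ex14D.

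How the libraries are scaled sets where the line between higher and lower lies. By promoter reads alone, 398 promoters were higher and 2130 lower, which put the median over all promoters at -0.47 in place of -0.02. By all counted reads of a library, 633 were higher and 585 lower, with a median of -0.17 over the same promoters. TMM over promoters under 2-fold gave 1141 higher and 308 lower, with a median of 0.11. Under each of these scalings the median change climbed from the 1- to 2-fold class to the class of 8-fold or more, by TMM from -0.16 to 1.04 and by promoter reads from -0.61 to 0.59. A curve fitted in each library against the average log2 CPM of promoters (loess) centres promoters of like average count on each other. The inputs are not used in it. Below, loess on level and like levels centred refer to this average count and not to the level over input. The curve takes any climb with average count away by construction. It left 275 promoters higher (1.85%) and 423 lower (2.84%), of which 232 and 289 were called in the same direction by TMM. List medians below are given as differences from the median of all promoters tested, which a change of 1 factor per library does not move, and calls are those with TMM.

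**Figure D2:**
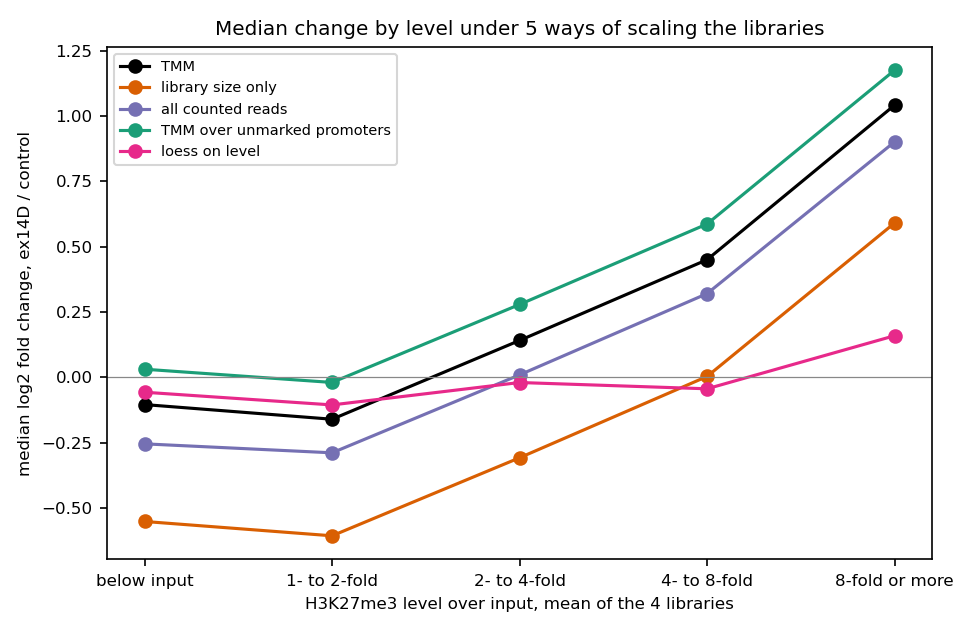
Median log2 fold change of ex14D over control (vertical axis) in 5 classes of H3K27me3 level over input (horizontal axis), 1 line for each way of scaling the libraries. The lines of the 4 scalings by 1 factor per library run parallel and rise to the class of 8-fold or more. The line named loess on level, which was fitted on average log2 CPM, stays between -0.11 and 0.16.

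The Hox genes, homeobox factors that set position along the body axis, moved together. All 39 passed the filter and all 39 were marked, 35 of them at 8-fold or more. At 36 of the 39 promoters H3K27me3 was higher in ex14D relative to other promoters, beside the 5.85% of all promoters called higher, and 3 were not called. The median was 1.60 above that of all promoters, and leaving out each library in turn gave medians from 1.46 to 1.74 above it. Together the 39 promoters took 2.08% and 1.84% of promoter reads in control and 3.91% and 4.87% in ex14D, with 0.198% and 0.189% in the inputs. With promoters of like level centred, the median was 0.39 above that of all promoters and 15 of 39 remained higher.

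Hoxb3, a factor of the hindbrain, had 355 and 422 CPM in control and 1274 and 2049 CPM in ex14D (log2 fold change 2.09 ± 0.23, adjusted p = 2.7e-06). Hoxa11, needed for limb and reproductive tract, had 230.1 and 195 CPM in control and 681 and 994 CPM in ex14D (log2 fold change 1.98 ± 0.22, adjusted p = 2.7e-06). Hoxd9 had 645 and 527 CPM in control and 1817 and 2302 CPM in ex14D (log2 fold change 1.82 ± 0.21, adjusted p = 2.8e-06). At each of them, as at every promoter called higher, both ex14D libraries lay above both control libraries, and the second ex14D library lay above the first. Hoxa10 stood at 565 and 544 CPM in control and 1438 and 1977 CPM in ex14D (log2 fold change 1.62 ± 0.21, adjusted p = 8.6e-06), and the highest counts of the family belonged to Hoxb6, at 696 and 598 CPM in control and 2000.3 and 2940.2 CPM in ex14D, and Hoxb8, at 722 and 591 CPM in control and 1910.3 and 2882 CPM in ex14D. By cluster, the median log2 fold change was 1.75 in A, 1.61 in B, 1.42 in C and 1.40 in D, and every gene of clusters A and B was called. By paralog group, which follows the order along the cluster, it was 1.53 for groups 1 to 4, 1.65 for groups 5 to 8 and 1.55 for groups 9 to 13, a spread smaller than that within each group. The 3 promoters that were not called were Hoxc13 (log2 fold change 0.32 ± 0.20, adjusted p = 0.4), Hoxc4 (log2 fold change 0.60 ± 0.20, adjusted p = 0.063) and Hoxd1 (log2 fold change 0.61 ± 0.34, adjusted p = 0.34). The MACS2 broad peak over Hoxa10 and Hoxa11 was 131 and 132 kb wide in control and 129 kb in each ex14D library, so the domain kept nearly the same width.

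**Figure D3:**
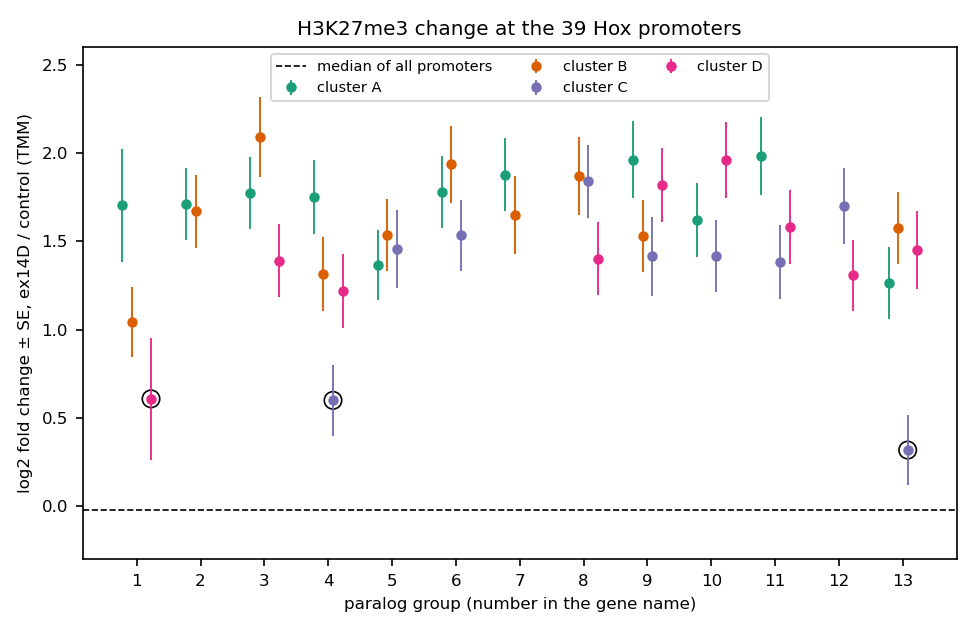
Log2 fold change of ex14D over control with its standard error (vertical axis) for each of the 39 Hox promoters, by paralog group (horizontal axis) and cluster (colour). All points lie above the dashed median of all promoters, and the 3 circled ones, Hoxd1, Hoxc4 and Hoxc13, were not called.

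Transcripts and genes embedded in the clusters moved with them. Evx2, a homeobox gene at the end of the HoxD cluster, had 628 and 496 CPM in control and 1869 and 2627 CPM in ex14D (log2 fold change 2.00 ± 0.22, adjusted p = 2.7e-06). Mira, a non-coding transcript within HoxA, had 577 and 505 CPM in control and 1783 and 2432 CPM in ex14D (log2 fold change 1.96 ± 0.21, adjusted p = 2.7e-06). Mir10a lies in HoxB, Mir196b in HoxA and Mir196a-2 in HoxC. Their RefSeq mature sequences are shown with the seed, bases 2 to 8, in capitals, because it sets which transcripts a microRNA can pair with.
miR-10a-5p: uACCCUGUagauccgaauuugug
miR-196a-5p: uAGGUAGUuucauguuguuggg
miR-196b-5p: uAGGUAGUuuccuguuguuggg
The miR-196 pair share their seed and miR-10a has another. Mir10a had 215 and 266 CPM in control and 749.9 and 1152 CPM in ex14D (log2 fold change 1.97 ± 0.23, adjusted p = 2.7e-06). Mir196a-2 had 565 and 601 CPM in control and 1922 and 2625 CPM in ex14D (log2 fold change 1.96 ± 0.21, adjusted p = 2.7e-06). Mir196b had 696 and 591 CPM in control and 1984 and 2654 CPM in ex14D (log2 fold change 1.85 ± 0.21, adjusted p = 2.7e-06). The 1 kb windows of these genes sit in the same domains as the Hox promoters, so the values are not independent of them. Over all 1187 microRNA genes, 620 were tested, 24 were higher and 9 lower, or 3.87% and 1.45% beside the 5.85% and 3.19% of all promoters.

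Across the 18 lists of developmental transcription factors, 315 of 340 genes were tested, 163 were higher and 10 lower in ex14D, and the median was 0.77 above that of all promoters. With like levels centred it was 0.19 above, with 40 higher and 11 lower. By median, the lists that came next after Hox were LIM, Dlx and Msx, Pax, Nkx and Iroquois genes. LIM homeobox genes, which specify kinds of neurons, had 10 of 12 higher and a median 1.36 above all promoters. Dlx and Msx genes, of forebrain, jaw and limb, had 9 of 9 higher and a median 1.29 above. Pax genes, paired box factors of neural tube, eye and kidney, had 6 of 9 higher (1.21 above). Nkx genes, of ventral neural tube, heart and gut, had 11 of 13 higher (1.14 above). Iroquois genes had 4 of 6 (0.94 above). The other homeobox lists lay lower, below GATA, endoderm, T-box and forkhead genes. POU genes had 4 of 12 higher and 1 lower (0.56 above). Nuclear receptors, which answer to hormones and other small ligands, had the lowest median of the 18 lists, 0.09 above, with 4 of 38 higher and 2 lower. That is 10.5% and 5.26% beside the 5.85% and 3.19% of all promoters.

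Lmx1b, a LIM factor of dopamine and serotonin neurons, had 344 and 204 CPM in control and 747 and 993 CPM in ex14D (log2 fold change 1.68 ± 0.23, adjusted p = 2e-05). Lhx8, a factor of forebrain cholinergic neurons, had far fewer reads, 80.8 and 70.6 CPM in control and 212 and 275 CPM in ex14D, and a like change (log2 fold change 1.69 ± 0.24, adjusted p = 3e-05). The most marked LIM genes were Lhx2, at 663 and 548 against 1588 and 2152 CPM, and Lhx5, at 713 and 478 against 1473 and 1828 CPM. Msx2 had 224 and 247 CPM in control and 589 and 714 CPM in ex14D (log2 fold change 1.46 ± 0.20, adjusted p = 2.2e-05). Dlx3 had 329 and 358 CPM in control and 845 and 928 CPM in ex14D (log2 fold change 1.37 ± 0.20, adjusted p = 3.4e-05). Msx2 acts in limb and skull and Dlx3 in skin and teeth, and their changes differed by less than their errors. Pax1, a factor of the sclerotome, had 300.2 and 329 CPM in control and 887 and 950.2 CPM in ex14D (log2 fold change 1.54 ± 0.20, adjusted p = 8.6e-06). Pax7, a factor of muscle precursors, had 608 and 402 CPM in control and 1084 and 1226 CPM in ex14D (log2 fold change 1.20 ± 0.21, adjusted p = 0.00035). The control libraries were closer together at Pax1 than at Pax7. Nkx1-1 combined a high count with a large change, 859 and 661 CPM in control and 2458 and 3259.6 CPM in ex14D (log2 fold change 1.91 ± 0.22, adjusted p = 2.7e-06). Nkx2-2, of ventral neural tube and pancreas, had 363 and 337 CPM in control and 1027 and 1282 CPM in ex14D (log2 fold change 1.72 ± 0.20, adjusted p = 3.7e-06). In none of these genes did the libraries of the 2 genotypes overlap, which also held for all 871 promoters called higher and for 5919 of the 13537 not called.

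Of 9 genes of the sine oculis homeobox family and their Eya partners, 3 were higher and 1 lower. That is 33.3% and 11.1% beside the 5.85% and 3.19% of all promoters. The median was 0.34 above all promoters and 0.0045 above with like levels centred. Six3, a homeobox factor of forebrain and eye, had 549 and 487 CPM in control and 1569 and 2119 CPM in ex14D (log2 fold change 1.83 ± 0.21, adjusted p = 2.7e-06). Both ex14D libraries lay above both control libraries, as at every promoter called higher.

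Factors of the germ layers had members called higher, given here beside the 5.85% of all promoters. Of 17 endoderm genes, 12 were higher (median 0.90 above all promoters). Of 28 genes of primitive streak and mesoderm, 13 (0.70 above). Of 6 GATA genes 5 (0.92 above) and of 14 T-box genes 7 (0.79 above). With like levels centred, 2 of the endoderm genes, 2 of the streak and mesoderm genes, 1 of the GATA genes and 1 of the T-box genes were still called higher. Onecut3, a cut-domain factor, had the highest counts, 1028 and 816 CPM in control and 2888 and 3987 CPM in ex14D (log2 fold change 1.90 ± 0.22, adjusted p = 2.7e-06). Foxa2, a pioneer factor of endoderm, had 393 and 355 CPM in control and 1036 and 1434 CPM in ex14D (log2 fold change 1.73 ± 0.21, adjusted p = 4.5e-06). Gata6, a factor of primitive endoderm, had few reads, 27.4 and 24.5 CPM in control and 71.0 and 62.7 CPM in ex14D (log2 fold change 1.37 ± 0.33, adjusted p = 0.0076), and with the inputs in the fit its value was -1.67.

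Among early mesendoderm regulators, T, the founding T-box gene, had 483 and 389.7 CPM in control and 827 and 897 CPM in ex14D (log2 fold change 0.99 ± 0.20, adjusted p = 0.0014). Eomes had 424 and 363 CPM in control and 785 and 887 CPM in ex14D (log2 fold change 1.09 ± 0.20, adjusted p = 0.00046). With like levels centred T stood at -0.01, neither higher nor lower, and Eomes at 0.13, not called. Mixl1, a homeobox gene of the streak, overlapped between genotypes, with 222 and 207 CPM in control and 212 and 195 CPM in ex14D (log2 fold change -0.07 ± 0.21, adjusted p = 0.89). Tbx2, of heart and limb, had 88.4 and 63.1 CPM in control and 178 and 175 CPM in ex14D (log2 fold change 1.24 ± 0.25, adjusted p = 0.0014; -0.30 with the inputs in the fit), a change of the same size at a far lower count than Tbx1, of the pharynx, which had 705 and 498 CPM in control and 1279 and 1417 CPM in ex14D (log2 fold change 1.17 ± 0.21, adjusted p = 0.00036; -0.048 with like levels centred).

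Forkhead genes, winged helix factors of many organs, had 20 of 37 higher, 1 lower and a median 0.75 above all promoters. Foxd2 had 215 and 129 CPM in control and 552 and 739 CPM in ex14D (log2 fold change 1.93 ± 0.24, adjusted p = 4.5e-06). Foxc1, of mesenchyme and eye, had 436 and 405 CPM in control and 1185 and 1282 CPM in ex14D (log2 fold change 1.56 ± 0.20, adjusted p = 7.9e-06). Foxo1, which acts under insulin signalling in many cells and whose promoter had no peak, went down from 29.0 and 48.0 CPM in control and 17.3 and 17.9 CPM in ex14D (log2 fold change -1.16 ± 0.36, adjusted p = 0.041, and -0.74 without control replicate 2). Sox genes had 8 of 17 higher and 1 lower. Sox9, of cartilage and testis, had 338 and 333 CPM in control and 820.1 and 893 CPM in ex14D (log2 fold change 1.35 ± 0.20, adjusted p = 3.7e-05). Sox13 had 96.0 and 67.8 CPM in control and 36.3 and 32.8 CPM in ex14D (log2 fold change -1.22 ± 0.32, adjusted p = 0.014). Of 9 Cdx, Meis and Pbx genes, regulators or cofactors of Hox genes and proteins, 3 were higher and 1 lower, against 5.85% and 3.19% of all promoters, and the median was 0.14 above. Cdx2, of trophectoderm and gut, had 602 and 455 CPM in control and 1241 and 1490.5 CPM in ex14D (log2 fold change 1.38 ± 0.21, adjusted p = 5e-05). Meis2 had 317 and 240.0 CPM in control and 667 and 718 CPM in ex14D (log2 fold change 1.32 ± 0.20, adjusted p = 6.6e-05). Pbx3 had 92.9 and 71.5 CPM in control and 14 and 19.9 CPM in ex14D (log2 fold change -2.27 ± 0.35, adjusted p = 6.5e-05). Its peaks of 3.63 and 3.65 kb in control were absent in ex14D.

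Neural basic helix-loop-helix genes were less uniform, with 12 of 40 higher and 2 lower. That is 30% and 5% beside the 5.85% and 3.19% of all promoters. The median was 0.27 above all promoters and turned to -0.06 with like levels centred. Olig2, of motor neurons and oligodendrocytes, had 602 and 442 CPM in control and 1413 and 1711 CPM in ex14D (log2 fold change 1.59 ± 0.21, adjusted p = 1.2e-05). Neurog1, of sensory neurons, had 677 and 525 CPM in control and 1432 and 1910.4 CPM in ex14D (log2 fold change 1.48 ± 0.21, adjusted p = 3.1e-05). The 2 called lower, Id4 and Hes1, were at promoters that were not marked, and 15 of the 40 had a value below 0. Id4, which blocks the dimers of this family, had 39.6 and 48.9 CPM in control and 13.2 and 8.95 CPM in ex14D (log2 fold change -1.98 ± 0.37, adjusted p = 0.00065). Hes1, a repressor downstream of Notch, had 39.6 and 29.2 CPM in control and 8.26 and 20.9 CPM in ex14D (log2 fold change -1.24 ± 0.40, adjusted p = 0.049, and -0.71 without ex14D replicate 1 and -1.98 without ex14D replicate 2). Of 10 Zic and Gli genes 5 were higher and 1 lower. Zic5 had 175 and 122 CPM in control and 424 and 510.4 CPM in ex14D (log2 fold change 1.67 ± 0.22, adjusted p = 1.1e-05). Gli1, a target of Hedgehog, was the 1 called lower and changed sign without its high control library, at 207 and 31.1 CPM in control and 41.3 and 35.8 CPM in ex14D (log2 fold change -1.56 ± 0.48, adjusted p = 0.038, and 0.27 without control replicate 1 and -2.44 without control replicate 2).

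**Figure D4:**
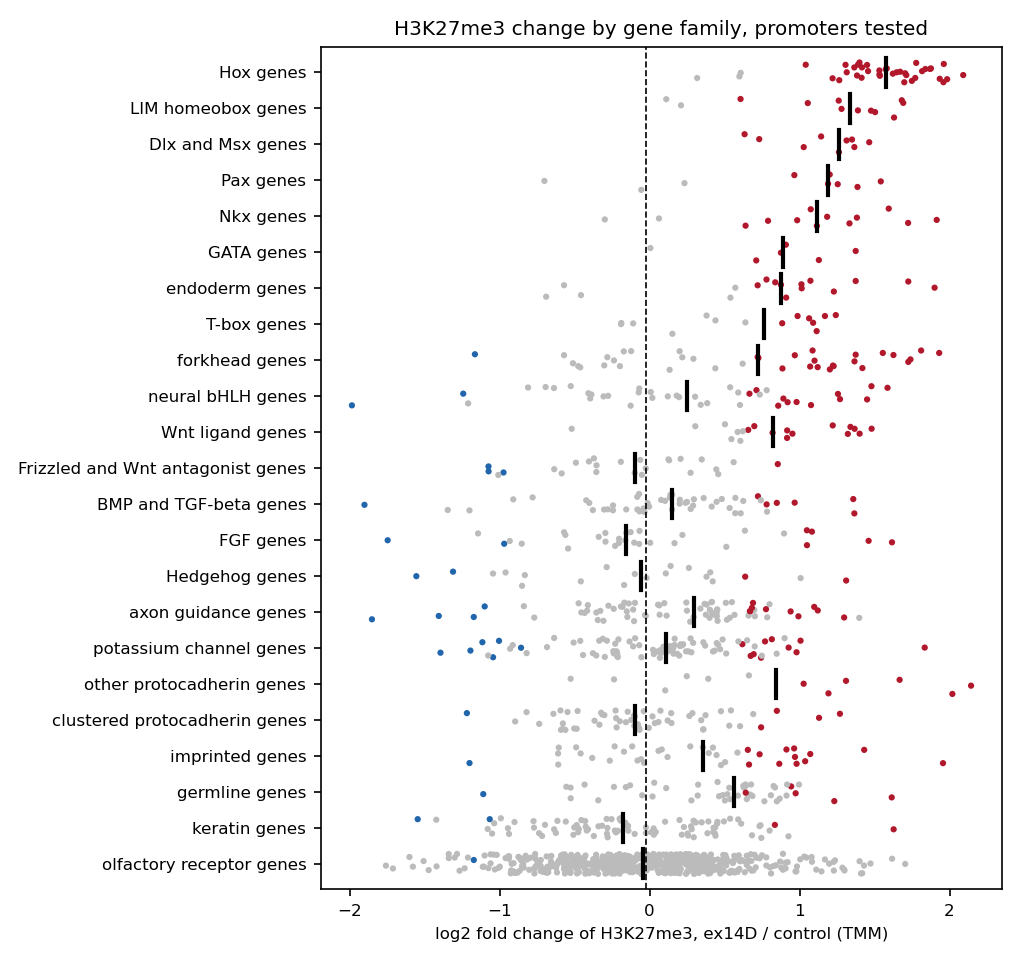
Log2 fold change of ex14D over control (horizontal axis) for every tested promoter of 23 gene families (rows), red where higher, blue where lower and grey where not called, with a black bar at the family median. The Hox, LIM, Dlx and Msx, Pax and Nkx bars lie more than 1 above the dashed median of all promoters, while the olfactory receptor bar lies on it.

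Signals of development are given by pathway, ligands first. Of 19 Wnt ligands, 12 were higher, 17 at an unadjusted p under 0.05, and the median was 0.84 above all promoters. Of 25 Frizzled receptors and secreted Wnt inhibitors, 1 was higher and 3 lower, and the median was -0.07 relative to all promoters. The ligands had 63.2% higher, and the receptors and inhibitors 4% higher and 12% lower, beside the 5.85% and 3.19% of all promoters. The Wnt ligands were the more strongly marked, with 12 at 8-fold or more against 2, and with like levels centred the medians were 0.14 and -0.15. Wnt5a, a ligand of the non-canonical branch, had 418 and 321 CPM in control and 952 and 1099.5 CPM in ex14D (log2 fold change 1.48 ± 0.21, adjusted p = 2.2e-05). Wnt1, of the midbrain, had 533 and 540.3 CPM in control and 1313 and 1522 CPM in ex14D (log2 fold change 1.40 ± 0.20, adjusted p = 2.8e-05). Notum, an enzyme that inactivates Wnt proteins, had 488 and 239 CPM in control and 197 and 142 CPM in ex14D (log2 fold change -1.07 ± 0.26, adjusted p = 0.0067, and -0.53 without control replicate 1), with the first control library the highest and both ex14D libraries the lowest. Dkk2, a secreted modulator, was the 1 inhibitor that was higher, at 227 and 194 CPM in control and 358 and 401 CPM in ex14D (log2 fold change 0.85 ± 0.20, adjusted p = 0.0063).

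In the BMP and TGF-beta family, 6 of 51 were higher and 1 lower, or 11.8% and 1.96% beside the 5.85% and 3.19% of all promoters. The ligand Bmp6 had 562 and 391 CPM in control and 1039.8 and 1404 CPM in ex14D (log2 fold change 1.37 ± 0.22, adjusted p = 9.7e-05). The ligand Gdf6 had 283 and 231 CPM in control and 594 and 718 CPM in ex14D (log2 fold change 1.36 ± 0.21, adjusted p = 5.3e-05). Bmpr2, the type II BMP receptor, had 77.7 and 115 CPM in control and 29.7 and 21.9 CPM in ex14D (log2 fold change -1.90 ± 0.33, adjusted p = 0.00027). Bmpr2 was the 1 gene of the family called lower. Of 31 FGF pathway genes, 5 were higher and 2 lower, or 16.1% and 6.45%. Fgf9 had 666 and 502 CPM in control and 1592 and 1976 CPM in ex14D (log2 fold change 1.62 ± 0.21, adjusted p = 1e-05). Fgf5, a gene of the primed epiblast, had 165 and 219 CPM in control and 533 and 533 CPM in ex14D (log2 fold change 1.46 ± 0.21, adjusted p = 2.9e-05). Both ligands, like every promoter called higher, lay above control in each ex14D library. Fgf20 had 177 and 174 CPM in control and 101 and 77.6 CPM in ex14D (log2 fold change -0.97 ± 0.24, adjusted p = 0.0089). Fgf22 had 18.3 and 26.4 CPM in control and 6.61 and 6.96 CPM in ex14D (log2 fold change -1.75 ± 0.44, adjusted p = 0.011). Fgf4, which ES cells express, had 91.4 and 22.6 CPM in control and 38.0 and 34.8 CPM in ex14D, and its groups overlapped (log2 fold change -0.56 ± 0.42, adjusted p = 0.51).

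In the Hedgehog pathway 2 of 20 genes were higher and 2 lower, or 10% each way beside the 5.85% and 3.19% of all promoters. The median was -0.03 from all promoters. The ligand Ihh had 675 and 605 CPM in control and 1423 and 1750.2 CPM in ex14D (log2 fold change 1.31 ± 0.20, adjusted p = 6e-05), and -0.004 with like levels centred. Gas1, a coreceptor, had 109.7 and 81.9 CPM in control and 41.3 and 34.8 CPM in ex14D (log2 fold change -1.31 ± 0.31, adjusted p = 0.0053). Of 13 Notch genes 4 were higher, among them the ligand Dll4, of vessels, at 143 and 136 CPM in control and 324 and 426 CPM in ex14D (log2 fold change 1.42 ± 0.21, adjusted p = 5e-05). Of 12 retinoic acid genes 3 were higher and 1 lower. Cyp26a1, which degrades retinoic acid, had 501 and 416 CPM in control and 966 and 964 CPM in ex14D (log2 fold change 1.08 ± 0.20, adjusted p = 0.0005). Aldh1a2, which makes it from retinaldehyde, had 113 and 82.8 CPM in control and 201 and 203 CPM in ex14D (log2 fold change 1.06 ± 0.24, adjusted p = 0.0037). Both were higher in each ex14D library, as was every promoter called higher. Rdh10, which makes the retinaldehyde, had 64.0 and 56.5 CPM in control and 19.8 and 15.9 CPM in ex14D (log2 fold change -1.73 ± 0.35, adjusted p = 0.0013).

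Genes of neurons and axons were often marked but at lower levels, 214 of 433 at 2-fold and 31 at 8-fold. Of 418 tested, 50 were higher and 23 lower, and the median was 0.12 above that of all promoters and -0.01 with like levels centred, where 9 were higher and 30 lower. By promoter reads alone, 11 were higher and 75 lower. Axon guidance genes had 10 of 73 higher and 4 lower, potassium channels 10 of 91 and 6, GABA, glycine and glutamate receptors 8 of 51 and 4, and receptors of amines, acetylcholine and peptides 8 of 79 and 4. In that order 13.7%, 11.0%, 15.7% and 10.1% were higher and 5.48%, 6.59%, 7.84% and 5.06% lower. Each of these shares lay above that of all promoters, which was 5.85% higher and 3.19% lower.

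Kcnk9, a leak potassium channel, had 591 and 481 CPM in control and 1576 and 2239.7 CPM in ex14D (log2 fold change 1.83 ± 0.22, adjusted p = 3.6e-06). Plxnd1, a semaphorin receptor, had 414 and 280.5 CPM in control and 773 and 923 CPM in ex14D (log2 fold change 1.30 ± 0.21, adjusted p = 0.00014). Efnb3, an ephrin of the midline, had 101 and 96.0 CPM in control and 26.4 and 27.9 CPM in ex14D (log2 fold change -1.85 ± 0.31, adjusted p = 0.00019). Sema4a, a semaphorin, had 65.5 and 48.0 CPM in control and 24.8 and 16.9 CPM in ex14D (log2 fold change -1.41 ± 0.35, adjusted p = 0.0098). Sema5b had the highest count of the guidance genes and overlapping groups, 936 and 559 CPM in control and 664 and 498 CPM in ex14D (log2 fold change -0.36 ± 0.22, adjusted p = 0.41), and stood at -1.35 once like levels were centred.

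Of 29 genes of transmitter synthesis and transport 3 were higher and 1 lower, or 10.3% and 3.45% beside the 5.85% and 3.19% of all promoters. Slc18a3, the vesicular acetylcholine transporter, had 306 and 282 CPM in control and 728 and 805 CPM in ex14D (log2 fold change 1.38 ± 0.20, adjusted p = 3.1e-05). Grm8, a metabotropic glutamate receptor, had 463 and 377 CPM in control and 904 and 940.3 CPM in ex14D (log2 fold change 1.14 ± 0.20, adjusted p = 0.0003). Glra1, a glycine receptor, had 142 and 110.1 CPM in control and 73.5 and 43.8 CPM in ex14D (log2 fold change -1.08 ± 0.29, adjusted p = 0.015). Hcrtr2, an orexin receptor, had 117 and 98.8 CPM in control and 46.2 and 42.8 CPM in ex14D (log2 fold change -1.27 ± 0.28, adjusted p = 0.0039). Of 57 genes of synaptic adhesion and vesicles 5 were higher and 3 lower, or 8.77% and 5.26% beside the 5.85% and 3.19% of all promoters. Nlgn1, a neuroligin, had 242 and 200.5 CPM in control and 409.6 and 482 CPM in ex14D (log2 fold change 1.02 ± 0.20, adjusted p = 0.0014). Rims2, a scaffold of vesicle release, had 35.0 and 34.8 CPM in control and 13.2 and 6.96 CPM in ex14D (log2 fold change -1.75 ± 0.38, adjusted p = 0.0031). Elavl3, an RNA-binding protein of neurons, had 306 and 191 CPM in control and 133 and 118 CPM in ex14D (log2 fold change -0.97 ± 0.24, adjusted p = 0.0084). Shc3, a neuronal adaptor, had 488 and 402 CPM in control and 834 and 942 CPM in ex14D (log2 fold change 1.00 ± 0.20, adjusted p = 0.0012; -0.011 with like levels centred).

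At the cell surface, protocadherins mediate adhesion between like cells. Of 12 tested outside the tandem arrays, 6 were higher, with a median 0.87 above all promoters, and with like levels centred 4 remained higher and the median was 0.38 above. Pcdh7, which links cells of the developing nervous system, had 60.9 and 47.1 CPM in control and 204 and 268 CPM in ex14D (log2 fold change 2.14 ± 0.26, adjusted p = 4.1e-06; 2.08 with like levels centred). Pcdh10 had 29.0 and 43.3 CPM in control and 118 and 184 CPM in ex14D (log2 fold change 2.02 ± 0.30, adjusted p = 4.9e-05; 2.11 with like levels centred), and its inputs held 7.33 and 0 CPM. Pcdh8, a target of mesoderm factors, had 469 and 495 CPM in control and 1019 and 1188 CPM in ex14D (log2 fold change 1.19 ± 0.20, adjusted p = 0.00015). In the clustered arrays, where neighbouring genes are near copies and reads may be shared among them, 4 of 56 were higher and 1 lower, or 7.14% and 1.79% beside the 5.85% and 3.19% of all promoters. Pcdhgb6 had 289.5 and 324 CPM in control and 652 and 831 CPM in ex14D (log2 fold change 1.27 ± 0.20, adjusted p = 0.0001). Pcdhga3 had 54.9 and 54.6 CPM in control and 24.0 and 22.9 CPM in ex14D (log2 fold change -1.22 ± 0.33, adjusted p = 0.019).

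A pair of connexins, the subunits of gap junctions, held the largest rise and the largest fall among promoters whose average log2 CPM reached 4 or more. Gja1, connexin 43, had 9.14 and 16.0 CPM in control and 84.2 and 72.6 CPM in ex14D against 36.6 and 36.0 CPM in the inputs (log2 fold change 2.57 ± 0.37, adjusted p = 3.7e-05). Its promoter had no peak in either control library and peaks of 12.4 and 4.81 kb in ex14D. Gjc1, connexin 45, had 120.4 and 38.6 CPM in control and 9.91 and 7.96 CPM in ex14D against 48.9 and 50.4 CPM in the inputs (log2 fold change -3.07 ± 0.47, adjusted p = 6e-05, and -2.13 without control replicate 1 and -3.75 without control replicate 2), with peaks of 4.79 and 3.70 kb in control and no peak in ex14D.

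Of 22 cadherins 3 were higher and 1 lower, or 13.6% and 4.55% beside the 5.85% and 3.19% of all promoters. Cdh11, of mesenchyme, had 399 and 298 CPM in control and 692 and 693 CPM in ex14D (log2 fold change 1.00 ± 0.20, adjusted p = 0.0015). Cdh24 had 53.3 and 71.5 CPM in control and 26.4 and 28.9 CPM in ex14D (log2 fold change -1.19 ± 0.33, adjusted p = 0.02). Of 41 collagens 5 were higher and 1 lower (12.2% and 2.44%), and Col2a1, of cartilage, had 449.5 and 384 CPM in control and 818 and 894 CPM in ex14D (log2 fold change 1.04 ± 0.20, adjusted p = 0.00072). Of 276 solute carriers 7 were higher and 9 lower, or 2.54% and 3.26% against 5.85% and 3.19% of all promoters. Slc2a4, the insulin-responsive glucose transporter, had 59.4 and 77.2 CPM in control and 16.5 and 24.9 CPM in ex14D (log2 fold change -1.75 ± 0.35, adjusted p = 0.0012).

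Among genes of growth control, 1 of 6 cyclin-dependent kinase inhibitors was higher and 1 lower, beside the 5.85% and 3.19% of all promoters. Cdkn1c, p57, had 465 and 372 CPM in control and 775 and 743 CPM in ex14D (log2 fold change 0.86 ± 0.20, adjusted p = 0.0047; -0.076 with like levels centred). Cdkn2c, p18, had 178 and 134 CPM in control and 44.6 and 26.9 CPM in ex14D (log2 fold change -2.10 ± 0.29, adjusted p = 2.6e-05). The peak over Cdkn2c, 17.4 and 16.7 kb wide in control, measured 11.3 kb in 1 ex14D library and was not called in the other. Imprinted genes, which are used from 1 parental copy, had 12 of 37 tested higher and 1 lower, or 32.4% and 2.70%. Grb10, a growth inhibitor, had 401 and 399 CPM in control and 1349 and 1757 CPM in ex14D (log2 fold change 1.96 ± 0.21, adjusted p = 2.7e-06). Rasgrf1 had 443 and 314 CPM in control and 963 and 1069 CPM in ex14D (log2 fold change 1.43 ± 0.21, adjusted p = 3.7e-05). Reads do not tell the parental copies apart.

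Promoters of the Polycomb genes themselves were often below the filter. Of 13 PRC2 genes, 3 were tested and 1 was marked. Phf19, an accessory subunit, had 279 and 237 CPM in control and 271 and 216 CPM in ex14D (log2 fold change -0.08 ± 0.21, adjusted p = 0.89). E130012A19Rik, which encodes the PRC2-associated protein EPOP, had 39.6 and 23.5 CPM in control and 10.7 and 14.9 CPM in ex14D (log2 fold change -1.25 ± 0.39, adjusted p = 0.04). Of 23 PRC1 genes, 16 were tested and 4 were higher, or 25% beside the 5.85% of all promoters. Bmi1, a partner of the ubiquitin ligase, had 218 and 207 CPM in control and 421 and 495 CPM in ex14D (log2 fold change 1.11 ± 0.20, adjusted p = 0.00047). Cbx8, a chromobox gene whose product reads H3K27me3, had 401 and 309.7 CPM in control and 639 and 750.2 CPM in ex14D (log2 fold change 0.97 ± 0.20, adjusted p = 0.002).

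The promoters of the ES cell state carried little of the mark. Of 29 pluripotency genes 17 passed the filter and 1, Tbx3, was marked, at 230.1 and 214 CPM in control and 326 and 274 CPM in ex14D (log2 fold change 0.44 ± 0.20, adjusted p = 0.21). Nanog had 15.2 and 9.41 CPM in control and 12.4 and 16.9 CPM in ex14D (log2 fold change 0.30 ± 0.45, adjusted p = 0.78), all near or below 20 CPM. The 4 called lower, 23.5% of those tested beside the 3.19% of all promoters, were Klf4, Klf2, Sall1 and Nr0b1. DESeq2 called 1, Klf4. Nr0b1 had 59.4 and 21.6 CPM in control and 18.2 and 7.96 CPM in ex14D (log2 fold change -1.50 ± 0.44, adjusted p = 0.032, and -0.73 without control replicate 1 and -2.16 without control replicate 2 and -2.28 without ex14D replicate 1). Klf4 had 142 and 95.1 CPM in control and 64.4 and 62.7 CPM in ex14D (log2 fold change -0.88 ± 0.28, adjusted p = 0.044). Klf2 had 109.7 and 19.8 CPM in control and 9.08 and 15.9 CPM in ex14D (log2 fold change -2.29 ± 0.53, adjusted p = 0.0053, and -0.73 without control replicate 1 and -3.18 without control replicate 2). Sall1 had 233 and 31.1 CPM in control and 24.0 and 15.9 CPM in ex14D (log2 fold change -2.64 ± 0.54, adjusted p = 0.0015, and -0.66 without control replicate 1 and -3.55 without control replicate 2). Neither was called without the first control library, in which both had their highest counts. Of 14 fibroblast markers, which would mark feeder cells, 13 were tested, 3 were marked and 1 was higher, Pdgfra (486 and 388 CPM in control and 1076 and 1249 CPM in ex14D, log2 fold change 1.42 ± 0.20, adjusted p = 3.2e-05). The other 12 were not called. Of the 13 tested, 11 had a value below 0, and the list median was -0.27 relative to all promoters. Counts of a mark on promoters do not measure how many such cells a culture held, and their part in the result was not tested.

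Genes in constant use had few reads. Of 298 genes of ribosome, proteasome, mitochondrial translation and splicing, 50 passed the filter and edgeR called 0 in either direction, with 7 higher and 1 lower at an unadjusted p under 0.05 and 0 by DESeq2. Their median was 0.32 above all promoters and 0.18 to 0.54 over the 4 pairs of libraries, and 40 of the 50 had a value above 0. Promoters with few reads can pass the filter through 1 genotype alone, so these values are not separate support. With the inputs in the fit, which held 21261 promoters and so other members of these lists, the median was 0.59 above. Large arrays of receptors and defence genes, which ES cells do not use, carried little of the mark. Of 600 olfactory receptors tested 1 was lower, Olfr1419 (48.8 and 45.2 CPM in control and 22.3 and 18.9 CPM in ex14D, log2 fold change -1.17 ± 0.34, adjusted p = 0.028), and 1 of 1107 was marked. Over all such arrays, 5 were higher and 6 lower of 1044, or 0.48% and 0.57% beside the 5.85% and 3.19% of all promoters. The median differed from all promoters by -0.04, less than the spread between the 4 pairs of libraries (-0.24 to 0.10). Many of these genes are near copies, and their reads may be shared.

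Germline genes are silenced by DNA methylation in many other cells, and few were marked. Of 46 tested, 6 were marked, and the median was 0.59 above all promoters and 0.65 above with like levels centred, where 7 were higher against 5 with TMM. Leaving out each library gave medians from 0.33 to 0.68 above. Dazl, an RNA-binding protein of germ cells, had 29.0 and 32.9 CPM in control and 94.2 and 97.5 CPM in ex14D (log2 fold change 1.61 ± 0.31, adjusted p = 0.0008). Ddx4, the Vasa helicase, had 114 and 116 CPM in control and 228 and 215 CPM in ex14D (log2 fold change 0.94 ± 0.22, adjusted p = 0.0058). Tekt2, of the sperm flagellum, was lower, at 65.5 and 77.2 CPM in control and 44.6 and 20.9 CPM in ex14D (log2 fold change -1.11 ± 0.35, adjusted p = 0.042, and -1.79 without ex14D replicate 1 and -0.65 without ex14D replicate 2). Zinc finger genes of the Zfp series, many with a KRAB domain, had 9 higher and 9 lower of 156 tested, or 5.77% each way beside the 5.85% and 3.19% of all promoters. Zfp503 had 538 and 424 CPM in control and 1169 and 1508 CPM in ex14D (log2 fold change 1.48 ± 0.21, adjusted p = 2.7e-05). Zfp827 had 48.8 and 25.4 CPM in control and 9.08 and 9.95 CPM in ex14D (log2 fold change -1.88 ± 0.41, adjusted p = 0.0027).

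The 12 largest rises among promoters whose average log2 CPM reached 4 or more fell into separate kinds. Hoxb3, Hoxa11, Evx2, Mir10a and Mira belonged to Hox clusters, and Pcdh7 and Pcdh10 were protocadherins. The promoter of 1010001N08Rik starts next to that of Gata6 on the other strand, lies under the same peak and had 33.5 and 17.9 CPM in control and 78.5 and 116 CPM in ex14D (log2 fold change 1.97 ± 0.35, adjusted p = 0.00038; -1.07 with the inputs in the fit). Gja1, Zfp280c, Msl3 and Ldha had little in control. Msl3, a subunit of a histone acetyltransferase complex, had 21.3 and 35.8 CPM in control and 118 and 129 CPM in ex14D (log2 fold change 2.06 ± 0.31, adjusted p = 4.9e-05), without a peak in control and under peaks of 3.19 and 4.43 kb in ex14D. Ldha, lactate dehydrogenase A, had 10.7 and 14.1 CPM in control and 52.9 and 53.7 CPM in ex14D against 48.9 and 57.6 CPM in the inputs (log2 fold change 2.06 ± 0.37, adjusted p = 0.00046), so that in ex14D it only came up to the input. Zfp280c had 6.09 and 4.71 CPM in control and 24.0 and 28.9 CPM in ex14D against 34.2 and 21.6 CPM in the inputs (log2 fold change 2.29 ± 0.46, adjusted p = 0.0012).

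The 12 largest falls were of another kind. At each of them except Ubtd1, both ex14D libraries lay below the ex14D input, and in control at least 1 library lay near or above its input. Rfx2, a regulator of ciliary genes, had 89.9 and 58.4 CPM in control and 10.7 and 10.9 CPM in ex14D against 66.0 and 52.8 CPM in the inputs (log2 fold change -2.74 ± 0.38, adjusted p = 2.3e-05). Socs7, a suppressor of cytokine signalling, had 83.8 and 83.8 CPM in control and 14 and 20.9 CPM in ex14D against 48.9 and 69.6 CPM in the inputs (log2 fold change -2.27 ± 0.34, adjusted p = 5.3e-05). At both the ex14D counts were well under the inputs. Tsc22d2 had 102 and 72.5 CPM in control and 19.8 and 13.9 CPM in ex14D (log2 fold change -2.33 ± 0.35, adjusted p = 5e-05). Zbtb7a, a zinc finger repressor, had 39.6 and 60.2 CPM in control and 9.91 and 13.9 CPM in ex14D (log2 fold change -2.10 ± 0.38, adjusted p = 0.00041). At each of these 4 genes either control library held more than 2 times the CPM of either ex14D library. Ubtd1 had 54.9 and 51.8 CPM in control and 14 and 9.95 CPM in ex14D (log2 fold change -2.12 ± 0.37, adjusted p = 0.00025). At Ubtd1 the control libraries nearly matched each other. Bnc2 had 122 and 24.5 CPM in control and 12.4 and 9.95 CPM in ex14D (log2 fold change -2.61 ± 0.52, adjusted p = 0.0012, and -1.16 without control replicate 1 and -3.45 without control replicate 2). C77370 had 57.9 and 21.6 CPM in control and 6.61 and 5.97 CPM in ex14D (log2 fold change -2.53 ± 0.47, adjusted p = 0.00064, and -1.80 without control replicate 1 and -3.20 without control replicate 2). Celsr3, a cadherin of axon tracts, had 48.8 and 24.5 CPM in control and 5.78 and 9.95 CPM in ex14D (log2 fold change -2.16 ± 0.43, adjusted p = 0.0013). At these 3 the first control library stood highest. Over all 475 lower promoters the first control library exceeded the second more than 2-fold at 27 and the reverse held at 3. Without the first control library 346 of the 475 were still called lower, and without the second 68 were. A genotype is then left with 1 library, whose spread is assumed to be that of the other. Of the 113 named promoters that were called, leaving out the first or the second control library kept 103 and 61, and leaving out the first or the second ex14D library kept 92 and 88.

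**Figure D5:**
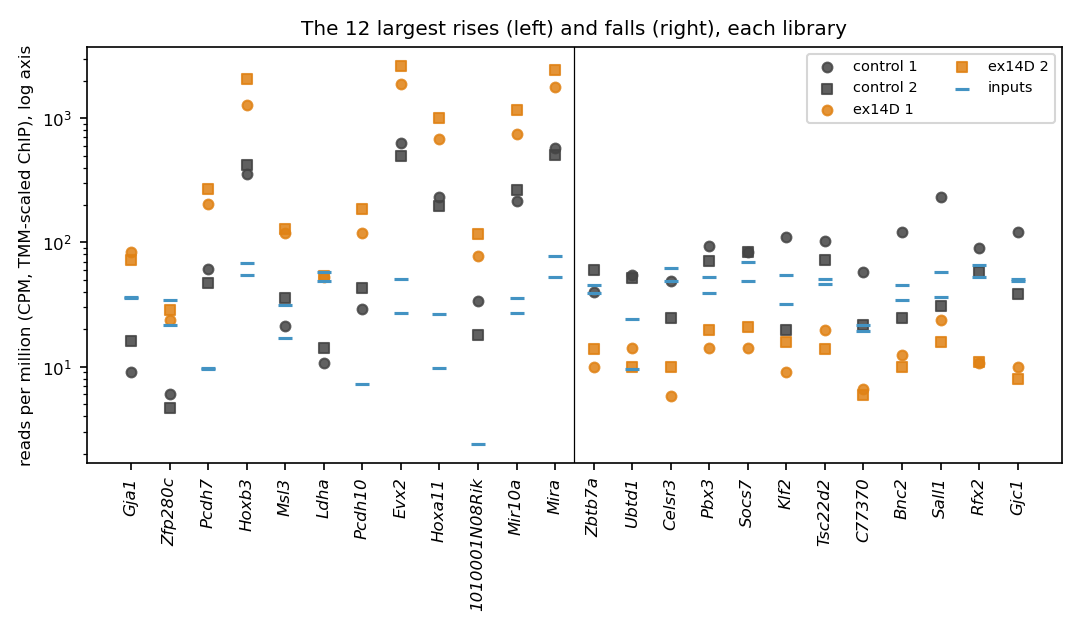
CPM on a log axis in each H3K27me3 library for the 12 largest rises and the 12 largest falls (horizontal axis), with blue dashes for the inputs, where an input of 0 is not drawn. By the rule that chose them, both ex14D libraries lie above both control libraries at the 12 rises and below them at the 12 falls. At Klf2, Bnc2, C77370, Sall1 and Gjc1 the first control library stands apart from the second.

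Peak width and base composition are given for both sets. Of the 871 higher promoters, 405 lay under a broad peak of 10 kb or more in both control libraries and 388 under a peak in both that was narrower in at least 1. Of the 475 lower ones, 16 lay under a peak that was wide in both, 263 under one that was narrower in at least 1, 106 under a peak in 1 control library and 87 under none. At a level of 8-fold or more, the 357 promoters under peaks wide in both had a median log2 fold change of 1.24 and the 229 under the narrower kind 0.73. Their median levels also differed, 3.65 and 3.34 on the log2 scale. With like levels centred the medians were 0.22 and 0.014. The ratio of observed to expected CpG had a median of 0.73 in the higher and 0.75 in the lower set, against 0.42 in promoters not called, so both directions involved CpG-rich promoters. Promoters were also put into 5 equal classes of GC content. At a level of 8-fold or more, the class poorest in G and C had a median of 1.52 (n = 13) and the richest 0.90 (n = 302). Below the input the richest class had -0.34. Correcting each library for GC content gave 922 higher and 529 lower.

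By chromosome, the median log2 fold change lay between -0.10 on chromosome 19 and 0.14 on X. The X chromosome had 27 higher and 6 lower of 270 tested, or 10% and 2.22% beside the 5.85% and 3.19% of all promoters. Over the 4 pairs of libraries the median on X ranged from -0.10 to 0.30, so it did not keep 1 sign. The ratio of the inputs did not set X apart, with a median log2 ratio of -0.02 over the same promoters.

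EZH2 itself was measured in other libraries, by reads over genes. Of 13401 genes tested, 1056 had less EZH2 in ex14D, or 7.88%. Of the promoters tested for both, EZH2 was lower at 288 and not called at 231 of those with higher H3K27me3. It was lower at 43 and not called at 223 of those with lower H3K27me3. Lower EZH2 thus met 55.5% of the former and 16.2% of the latter, against 12.1% of all 8533 promoters tested for both. These shares leave out 352 higher and 209 lower promoters that had no EZH2 test. Among those without a test were all HoxB and HoxC genes, with 0 EZH2 reads in every library. Hoxa4, Hoxa5, Hoxa6 and Hoxd4 also had 0, while Hoxa3 had 383 and 394 CPM of EZH2 in control. Reads ambiguous between genes made up 21.2% to 21.9% of each EZH2 library, against 0.32% to 0.45% of each H3K27me3 library. Their part in these zeros was not tested, so the zeros do not show an absence of EZH2. At 8-fold or more, promoters with lower EZH2 had a median H3K27me3 change of 1.03 (n = 251) and those where EZH2 was not called had 1.06 (n = 105). At 4- to 8-fold the values were 0.41 (n = 280) and 0.52 (n = 223), and at 2- to 4-fold 0.07 (n = 255) and 0.16 (n = 404). At 1- to 2-fold they were -0.12 (n = 127) and -0.16 (n = 637). Below the input, where few reads lie, they were -0.37 (n = 117) and -0.10 (n = 6130). Pax1 (EZH2 log2 fold change -1.09, adjusted p = 0.011), Foxa2 (-0.60, adjusted p = 0.03) and Wnt5a (-0.80, adjusted p = 0.016) had higher H3K27me3 and lower EZH2. At Id4 (EZH2 log2 fold change -1.50, adjusted p = 0.0099), Klf4 (-1.45, adjusted p = 0.004) and Gas1 (-2.04, adjusted p = 0.0036) both went down. EZH2 was counted over whole genes and H3K27me3 over 1 kb windows, and without either control EZH2 library no gene passed the EZH2 test in edgeR, with 1372 and 1300 lower at an unadjusted p under 0.05.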

How the data were processed

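H3K27me3, EZH2 and input ChIP-seq libraries of control and ex14D mouse ES cells were used. The authors deposited raw read counts per gene, with reads over 1 kb windows on the start site for H3K27me3 and its inputs and over genes for EZH2, and broad peak positions per library. Per the labels and the methods, reads were trimmed with Trimmomatic, aligned to mm10 (GRCm38) with Bowtie2 and used for MACS2 and HTSeq, with versions not given in the sources used here. No column of values was left without a sample (0). Rows for reads assigned to no gene stayed out of tests and library sizes and held over 92% of every H3K27me3 library.

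Groups followed the labels. Genes that passed filterByExpr were scaled by TMM and tested with edgeR 4.0.16 (glmQLFit, glmQLFTest, R 4.3.3) on the 4 H3K27me3 libraries, with Benjamini-Hochberg adjustment at 0.05 over all promoters tested. The level used a pseudocount of 1 CPM. Alternatives were other scalings, a loess on average log2 CPM (limma 3.58.1, span 0.3), DESeq2 1.42.0 and filters. Others were inputs in the fit, thinned libraries, a replicate block and leaving out each library. The scripts were tested on simulated data. The control and ex14D libraries of the same number did not deviate together (correlation -0.10), so the numbers do not pair them. Counting error limits promoters of few reads, and the depth of 1 library does not exceed 1450937 promoter reads.

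The 12 largest rises and 12 largest falls were named among called promoters whose average log2 CPM reached 4 and which kept their direction in every pair of libraries. In each gene list the 2 highest counts, the 2 largest rises and the 2 largest falls were named, with genes the study names for these cells. Members and the 64 gene lists were chosen with earlier results of these data known. Some items that the rule names are not reported here. Of 24500 genes, 23524 were placed by symbol and 842 by synonym in the RefSeq annotation of GRCm38.p6, read with Python 3.11.15 (pandas 2.3.3, numpy 2.4.6, pysam 0.24.0), and figures were drawn with matplotlib 3.10.9. The start site in the counts may differ from RefSeq's, and genes with near copies (histone, olfactory receptor and microRNA genes) are uncertain, since shared reads could be split or lost.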

Additional observations from a re-analysis of the deposited data

How the results depend on the processing

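The number of promoters higher in ex14D, 871 with TMM, was 398 when scaled by promoter reads, 275 with a loess on level, 513 over promoters with an average of at least 50 reads and 21 with the inputs in the fit. The number lower, 475, was 2130 by promoter reads, 308 with TMM over promoters that were not marked, 266 in DESeq2 and 10 with the inputs in the fit, where each genotype has 1 input. With 1 library left out, 255 to 797 were higher and 73 to 610 lower, the lowest of both without control replicate 2. Fewer libraries were then in the test, and for the other shifts the cause was not tested.

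With the replicate number as a block, 755 promoters were higher and 406 lower, and 111 of the 113 calls at named genes were kept. Crossing the numbers, chosen after seeing the data, gave 1185 higher and 795 lower. A loess on GC percent, also chosen after seeing the data, gave 922 and 529.

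The median of marked promoters, 0.43 above that of all promoters tested, was 0.068 above with the loess on level, 0.29 in DESeq2, 0.29 with no filter, 0.19 over an average of at least 50 reads, 0.29 with the inputs and 0.18 where an EZH2 domain in both control libraries replaced the level. It was 0.31 to 0.53 with 1 library left out. The fit with the inputs held 21261 promoters, and DESeq2 and no filter held 23599 each. Their medians thus cover other promoters than the 14883 of TMM. The median of developmental transcription factors, 0.77 above, was 0.19 with the loess on level, 0.60 in DESeq2, 0.61 with no filter, 0.54 with the inputs and 0.92 with libraries thinned to the smallest, and 0.66 to 0.82 with 1 library left out. The median of gene arrays, -0.04 from all promoters, was -0.25 in thinned libraries. Of 63 lists with 5 or more tested genes, 56 kept their sign with the loess on level, 51 with the inputs, 55 in DESeq2 and 52 to 56 with 1 library left out. The number of EZH2 genes lower in ex14D, 1056, ranged from 0 without either control EZH2 library to 1561 with edgeR, and 1372 and 1300 had an unadjusted p under 0.05 in the former.

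Of the 113 named genes called, the loess on level kept 66 and the inputs in the fit kept 9. With the loess, values turned at Tbx1 (-0.048), T (-0.0086), Ihh (-0.0040), Shc3 (-0.011) and Cdkn1c (-0.076). With the inputs they turned at Gata6 (-1.67), the adjoining 1010001N08Rik (-1.07) and Tbx2 (-0.30). Gli1 ranged from -2.44 to 0.27 with 1 library left out. The second ex14D library had the higher count at most Hox promoters, and the first control library at several of the largest falls. Promoters below the input rest on few reads, which limits what their falls can show.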

Other observations

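Some further families are given beside the 5.85% of promoters higher and 3.19% lower overall. Of 88 keratin genes, which build the filaments of epithelia, 2 were higher and 2 lower. Of 21 claudin genes, of tight junctions, 1 was higher. Of 35 integrin and laminin genes 1 was lower. Interleukin and chemokine genes, the messengers of immune cells, had 2 higher and 3 lower of 99. Sodium and calcium channels, which were marked more often (16 of 40), had 6 higher and 1 lower of 38. Of the 69 histone genes 7 passed the filter, with 1 higher and 1 lower, and their reads may be shared among near copies. Of 21 small nucleolar RNA genes tested 1 was higher. Of 31 Rhox genes, a homeobox array on X, 5 passed the filter and edgeR called 0, with 1 higher and 1 lower at an unadjusted p under 0.05 and 0 by DESeq2.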
